A study of Mus musculus with 10 samples.

Results

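WNT ligands are secreted, lipid-modified glycoproteins that pattern the medial side of the embryonic cortex. This account describes 10 of them in mouse cortex of libraries labelled as knockout of the transcription factor Emx2 or as wild type: Wnt2b, Wnt3, Wnt3a, Wnt4, Wnt5a, Wnt5b, Wnt7a, Wnt7b, Wnt8b and Wnt9a. The 10 genes were matched by symbol in the deposited tables of 56748 gene identifiers. They were read in 3 sets: 5 ligands called hem-type here (Wnt2b, Wnt3a, Wnt5a, Wnt8b and Wnt9a), the pair Wnt7a and Wnt7b, and the remaining Wnt3, Wnt4 and Wnt5b. Gene-level RNA-seq counts came from 5 libraries labelled Emx2 KO and 5 labelled WT, all of cortex at stage E12.5. The labels give no Emx2 allele, no strain and no embryo behind each library. The libraries may thus be technical repeats in part, and p-values refer to the spread among them.

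As background, the cortical hem is a strip of neuroepithelium at the medial margin of the cortex, beside the choroid plexus. It secretes WNT and BMP proteins and is known as the organizer of the hippocampus. Emx2 is a homeobox transcription factor of the dorsal telencephalon whose loss is known to reduce medial cortex. WNT proteins are lipidated by Porcn in the endoplasmic reticulum, carried to the cell surface by Wls and bound by Frizzled receptors with Lrp5 or Lrp6, after which β-catenin accumulates and acts with TCF/LEF factors. Some ligands, Wnt5a among them, act largely through other receptors such as Ror2. Wnt7a and Wnt7b are ligands of the cortical neuroepithelium and its neurons, and they use the coreceptors Reck and Adgra2 on brain blood vessels.

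Start-site sequences were available for 8 of the 10 genes, with 3 windows for Wnt5b, from RefSeq (mouse build GRCm38.p6). Wnt5a and Wnt7b had no entry. 3 windows are shown, each the 250 bases upstream of the annotated start, written 5′ to 3′ in the sense of the gene: Wnt2b as the ligand with the largest difference, Wnt8b as the most abundant hem-type ligand, and Wnt7a as the ligand that was higher in the knockout. Capitals mark the homeodomain core TAATTA, which reads the same on both strands. The Wnt8b window lies at chr19:44493222-44493471 (plus strand), the Wnt2b window at chr3:104961710-104961959 (minus strand) and the Wnt7a window at chr6:91411354-91411603 (minus strand).
Wnt8b: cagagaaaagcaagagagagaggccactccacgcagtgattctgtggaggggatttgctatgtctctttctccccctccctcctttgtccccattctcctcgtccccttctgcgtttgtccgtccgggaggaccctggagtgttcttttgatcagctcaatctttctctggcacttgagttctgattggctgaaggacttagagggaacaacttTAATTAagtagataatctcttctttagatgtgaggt
Wnt2b: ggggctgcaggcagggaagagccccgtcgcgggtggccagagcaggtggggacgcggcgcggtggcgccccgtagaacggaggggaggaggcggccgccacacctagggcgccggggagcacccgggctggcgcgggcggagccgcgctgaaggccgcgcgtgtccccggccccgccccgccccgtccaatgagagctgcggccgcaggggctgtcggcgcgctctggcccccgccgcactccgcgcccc
Wnt7a: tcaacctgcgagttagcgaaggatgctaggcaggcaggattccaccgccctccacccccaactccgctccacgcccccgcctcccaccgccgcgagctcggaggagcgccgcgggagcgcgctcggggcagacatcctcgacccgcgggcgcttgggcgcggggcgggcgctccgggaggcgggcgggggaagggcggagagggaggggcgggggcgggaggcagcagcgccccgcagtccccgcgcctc
The Wnt8b window differed in composition from the other windows of hem-type ligands, with 48.4% G or C bases against 80.8% for Wnt2b, 87.6% for Wnt3a and 84.4% for Wnt9a. The Wnt7a window held 77.6%, and the median over 32851 windows of this length was 52.4%. Among the windows of these genes TAATTA was found only upstream of Wnt8b, 36 bases before the start, and 4.84% of all windows held it. The core bound by TCF/LEF factors was searched on both strands as CTTTGAA or CTTTGAT or CTTTGTA or CTTTGTT. It was found in 1 of the 3 Wnt5b windows, 71 bases before the start, and 14.8% of all windows held it. These matches describe letters in a short window and no binding was measured.

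Library totals lay between 9720840 and 35674113 counts, and 18163 genes had enough reads to be tested. Emx2 itself, the gene named in the knockout label, measured 146, 129, 108, 137 and 94.6 CPM (counts scaled to a common library total) in knockout replicates 1 to 5 and 207, 179, 175, 182 and 185 CPM in wild-type replicates 1 to 5. The groups did not overlap, and the log2 fold change was -0.59 ± 0.11 (SE; adjusted p = 0.00271, edgeR quasi-likelihood test). The transcript was thus lower but still counted in the knockout libraries, and whether a deleted part is missing cannot be read from a gene's total. Sample titles end in a code (241022, 14922 or 31022) whose meaning the labels do not give. Within each code the knockout and wild-type libraries also fell in different size classes (at most 14700549 or at least 24856930 counts), so inside a code genotype and library size cannot be told apart. Summed markers of cortical progenitors ran from 4734 to 5133 CPM in the knockout and from 4043 to 4266 CPM in the wild type, so the tissue's defining markers were present throughout.

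Of the 10 ligands, 7 were lower in the knockout libraries, 1 was higher and 2 did not pass the test. All 5 hem-type ligands were lower, by 2.21-fold for Wnt9a to 4.96-fold for Wnt2b. Wnt7a and Wnt7b moved in opposite directions: Wnt7a rose 1.49-fold and Wnt7b fell 2.00-fold. Over all 18163 genes the same test called 9.33% lower and 12.9% higher. Libraries of the 2 genotypes did not overlap for 6 ligands that were lower and for 1 that was higher, against 7.06% and 9.63% of all tested genes. The median log2 fold change was -1.69 over the hem-type ligands and -0.01 over all tested genes. In whole tissue, fewer cells that make a ligand and less RNA per cell cannot be told apart.

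**Figure D1:**
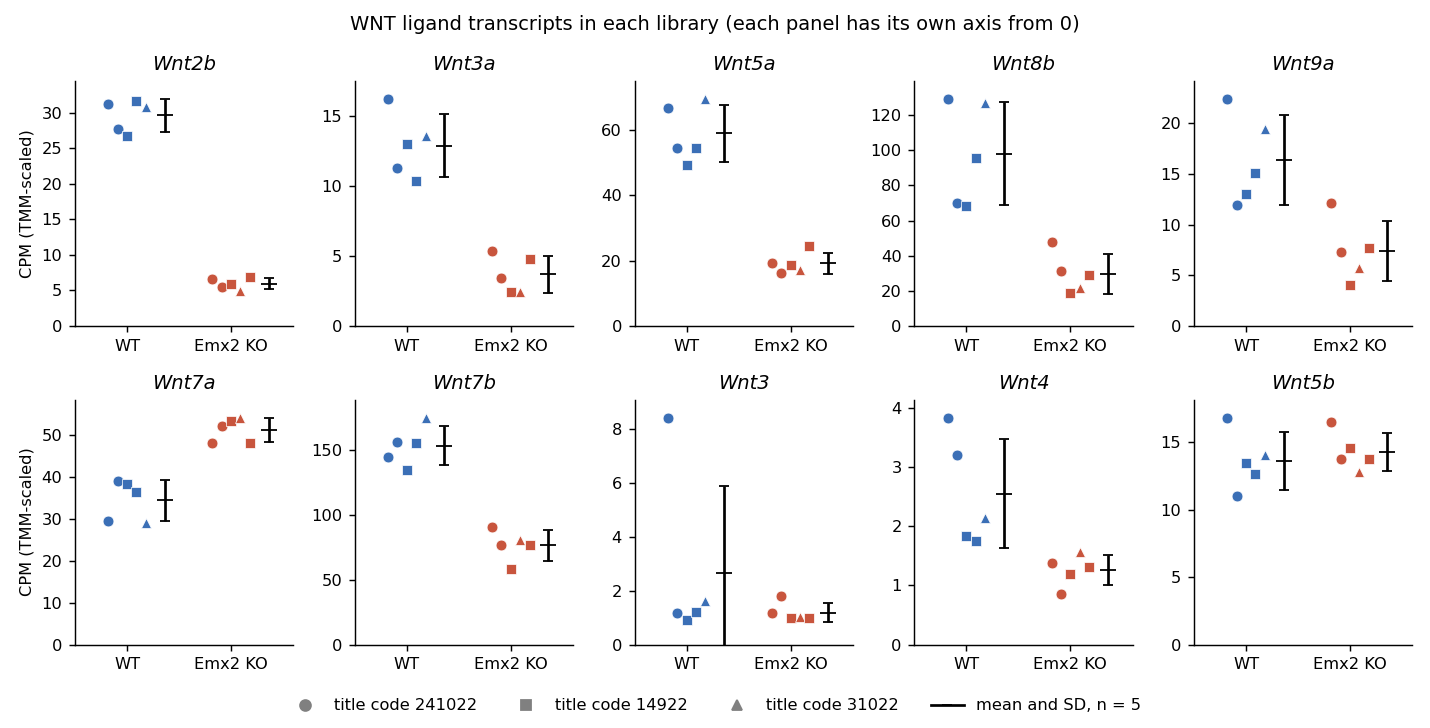
Level of each ligand (CPM from TMM-scaled totals, y axis from 0, a scale of its own in each panel) in 5 wild-type libraries (blue) and 5 Emx2 KO libraries (red), with marker shape for the title code and the mean and SD beside the points; the lower SD bar of wild-type Wnt3 passes below 0 and is not drawn in full. The 5 panels of the top row hold the hem-type ligands, each lower in the knockout, while Wnt7a in the bottom row runs from 48.1 to 54.1 CPM in the knockout against 28.9 to 39.0 CPM in the wild type.

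Wnt2b, a hem ligand that signals through β-catenin, had the largest difference of the 10 ligands. It measured 6.63, 5.54, 5.87, 4.91 and 6.92 CPM in knockout replicates 1 to 5. In wild-type replicates 1 to 5 it measured 31.3, 27.7, 26.7, 31.7 and 30.8 CPM. No knockout library came near a wild-type one. The means were 5.97 ± 0.815 CPM and 29.7 ± 2.28 CPM (SD, n = 5 each), so the knockout retained 20.1% of the wild-type level. The log2 fold change was -2.31 ± 0.10 (SE; adjusted p = 8.60e-08), and it lay between -2.27 and -2.20 in the 2 title codes with 2 libraries of each genotype.

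Wnt3a, the hem ligand known to be needed for growth of the hippocampus, had the lowest mean CPM of the hem-type transcripts, without regard to length. Its levels were 5.35, 3.46, 2.45, 2.46 and 4.78 CPM in the knockout and 16.2, 11.3, 13.0, 10.4 and 13.6 CPM in the wild type, in replicate order. Knockout replicates 1 and 5 stood above the other knockout libraries, yet the highest of them remained below the whole wild-type group. The log2 fold change was -1.79 ± 0.22 (adjusted p = 0.00019), and the knockout mean was 28.6% of the wild-type mean.

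Wnt5a, a ligand of the hem and medial wall that signals largely without β-catenin, fell by a similar amount. Knockout libraries held 19.4, 16.1, 18.7, 16.98 and 24.6 CPM, and wild-type libraries 66.7, 54.5, 49.1, 54.5 and 69.3 CPM. The groups stood apart, and knockout replicate 5 was the highest of its group. The means of 19.2 ± 3.29 and 58.8 ± 8.73 CPM gave a log2 fold change of -1.62 ± 0.13 (adjusted p = 1.16e-05).

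Wnt8b, a ligand of the hippocampal primordium and hem, was the most abundant hem-type ligand and also varied widely within each genotype. It measured 48.1, 31.3, 18.9, 21.8 and 29.2 CPM in the knockout and 129, 70.2, 68.6, 95.4 and 127 CPM in the wild type. Knockout replicate 1 was high for its group, and wild-type replicates 1 and 5 were well above the other wild-type libraries. The groups did not overlap, and the log2 fold change was -1.69 ± 0.29 (adjusted p = 0.00299). The coefficient of variation was 38.1% in the knockout and 30.0% in the wild type, against 13.7% and 7.70% for Wnt2b.

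Wnt9a was the only hem-type ligand whose groups overlapped. Knockout libraries held 12.1, 7.33, 4.08, 5.77 and 7.75 CPM and wild-type libraries 22.4, 11.9, 13.0, 15.1 and 19.4 CPM. Knockout replicate 1 lay just above wild-type replicate 2, which was lowest in its group. The difference was -1.11 ± 0.27 on the log2 scale (adjusted p = 0.0142). With every gene that had a read kept in the test, Wnt9a did not pass the threshold (-1.10, adjusted p = 0.0627).

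Certain libraries tended to be high for hem-type ligands, without a common order of all libraries. Wild-type replicate 4, for example, was highest of its group for Wnt2b (31.7 CPM) and lowest for Wnt3a (10.4 CPM). Replicate 1 of each genotype was also the highest for Wnt5b, which is not hem-type (16.5 CPM in the knockout and 16.8 CPM in the wild type). Knockout replicate 1 was among the top 2 knockout libraries for all 5 ligands and knockout replicate 5 for 4 of them. Wild-type replicate 1 was among the top 2 wild-type libraries for all 5, and wild-type replicate 5 for 4. Wild-type replicates 1 and 5 were the 2 lowest wild-type libraries for Wnt7a. Likewise knockout replicates 1 and 5 were the 2 lowest knockout libraries for Wnt7a.

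Wnt7a was the only ligand of the 10 that rose. It measured 48.1, 52.2, 53.3, 54.1 and 48.1 CPM in the knockout and 29.4, 39.0, 38.4, 36.3 and 28.9 CPM in the wild type. Each knockout value exceeded the whole wild-type range. The means were 51.2 ± 2.86 and 34.4 ± 4.90 CPM (SD, n = 5 each), with a log2 fold change of 0.57 ± 0.09 (SE; adjusted p = 0.000683). The direction held under every scaling of the libraries that was tried, with values of 0.44 to 0.64 over all alternatives.

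Wnt7b, the close relative of Wnt7a, had the highest CPM of the 10 ligands in both genotypes and moved the other way. Knockout libraries held 90.8, 76.4, 58.2, 80.6 and 76.4 CPM and wild-type libraries 144, 156, 135, 155 and 175 CPM. No knockout library reached the wild-type range. The means of 76.5 ± 11.8 and 153 ± 14.99 CPM gave a log2 fold change of -0.99 ± 0.11 (adjusted p = 1.00e-04). Wild-type replicate 1, among the top 2 wild-type libraries for every hem-type ligand, ranked 4 of 5 for Wnt7b.

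Wnt3, Wnt4 and Wnt5b behaved differently from each other. Wnt4 was scarce, with 1.38, 0.855, 1.19, 1.55 and 1.32 CPM in the knockout and 3.83, 3.20, 1.83, 1.75 and 2.14 CPM in the wild type. Its counts were 16 to 66 reads a library, the groups were close but did not overlap, and the log2 fold change was -0.98 ± 0.26 (adjusted p = 0.0184). Wild-type replicates 1 and 2, which share title code 241022, held the highest Wnt4 levels.

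Wnt5b, a ligand related to Wnt5a, was not found to differ. It measured 16.5, 13.7, 14.6, 12.8 and 13.8 CPM in the knockout and 16.8, 11.04, 13.4, 12.7 and 14.0 CPM in the wild type. The groups overlapped over almost their whole range. The log2 fold change was 0.07 with a 95% interval of -0.16 to 0.31 (adjusted p = 0.698), which leaves out a change of the size seen for Wnt5a.

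Wnt3 did not pass the test, and its estimate rested on 1 library. Knockout libraries held 1.18, 1.78, 0.965, 1.02 and 0.969 CPM and wild-type libraries 8.41, 1.16, 0.914, 1.22 and 1.63 CPM. Wild-type replicate 1 stood alone, and the other 4 wild-type libraries, at 0.914 to 1.63 CPM, overlapped the knockout range of 0.965 to 1.78 CPM. The log2 fold change was -1.07 with a 95% interval of -2.45 to 0.31 (adjusted p = 0.268), and without wild-type replicate 1 it was 0.01 (adjusted p = 0.986). Olig3, a transcription factor of the thalamic neuroepithelium, had 247 reads in that library and 79 in wild-type replicate 5, against 7 to 29 in the other 8. Summed diencephalon markers were 159 CPM in wild-type replicate 1 and 128 CPM in wild-type replicate 5, against 87.1 to 108 CPM in the other wild-type libraries and 72.1 to 122 CPM in the knockout. Of 11 such markers 6 were tested, with 1 lower and 1 higher, against 9.33% and 12.9% of all tested genes. The part of these markers in the Wnt3 level was not tested.

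**Figure D2:**
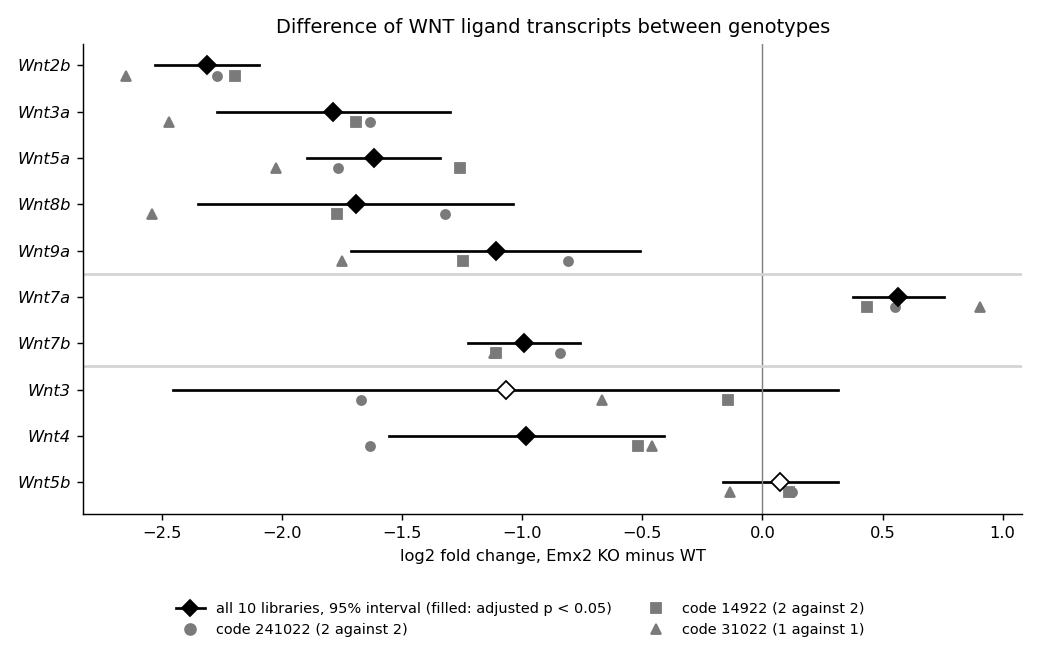
Log2 fold change of each ligand (x axis, Emx2 KO minus WT) over all 10 libraries with its 95% interval (diamonds, filled where the adjusted p was below 0.05), and below each the value within title codes 241022 and 14922 (2 libraries against 2) and 31022 (1 against 1). Every hem-type ligand lies left of 0 in all 3 codes, Wnt7a lies right of 0 in all 3, and the Wnt3 interval of -2.45 to 0.31 spans 0.

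Within title codes the directions of the 8 ligands that passed were the same as over all libraries. Each of these values is also a contrast of library size, with the knockout libraries larger in codes 241022 and 31022 and smaller in code 14922. The value for Wnt8b was -1.32 in code 241022, -1.77 in code 14922 and -2.54 in the single pair of code 31022. The corresponding values for Wnt9a were -0.81, -1.25 and -1.75. For Wnt7a they were 0.55, 0.44 and 0.91, and for Wnt7b -0.84, -1.11 and -1.12. Wnt4 was lower by more in code 241022 (-1.64) than in code 14922 (-0.52) or code 31022 (-0.46). In edgeR's test of whether the genotype difference varied between codes 241022 and 14922, no ligand passed. The smallest adjusted p was 0.707, for Wnt4, whose interaction was 1.11 ± 0.44 (unadjusted p = 0.0346, the only ligand under 0.05), and 282 of 18431 genes passed, or 1.53%. In fits of the 4 libraries of code 241022 or 14922, or of the 5 libraries of a size class, Wnt4, Wnt8b and Wnt9a missed the threshold. With code or size class as a block over all 10 libraries, the 7 lower ligands and Wnt7a passed.

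Levels of different ligands were compared as CPM per kilobase of merged exons. In the wild type Wnt7b (31.2 ± 3.06 CPM per kb) and Wnt8b (28.2 ± 8.45) stood at the top and overlapped, with Wnt7b above Wnt8b in 3 of 5 libraries. Wnt7a followed at 10.8 ± 1.54 CPM per kb, clear of its neighbours on both sides. Wnt5a (7.52 ± 1.12) and Wnt2b (7.06 ± 0.544) overlapped, as did Wnt5b (5.13 ± 0.799), Wnt9a (4.92 ± 1.33) and Wnt3a (4.68 ± 0.819). Wnt3 and Wnt4, at 0.867 ± 1.05 and 0.608 ± 0.219 CPM per kb, were at the bottom and were not separated.

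In the knockout the order per kilobase changed at the top. Wnt7a (16.1 ± 0.901 CPM per kb) and Wnt7b (15.6 ± 2.41) led and overlapped, and Wnt8b came next at 8.59 ± 3.27 CPM per kb, with a range that overlapped that of Wnt7b. Wnt5b ranked 4 at 5.37 ± 0.529 CPM per kb, overlapping Wnt8b and clear of Wnt5a. Wnt5a (2.45 ± 0.421) and Wnt9a (2.23 ± 0.901) overlapped, as did Wnt9a with Wnt2b (1.42 ± 0.194) and Wnt2b with Wnt3a (1.34 ± 0.481). Wnt3 (0.385 ± 0.113) and Wnt4 (0.300 ± 0.0623) were again lowest. Wnt2b thus moved from above Wnt5b, Wnt9a and Wnt3a in the wild type to the level of Wnt3a in the knockout.

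Summed per kilobase, the 10 ligands came to 53.8 ± 6.55 in the knockout and 101 ± 13.1 in the wild type (CPM per kb, SD, n = 5 each). Hem-type ligands made up 29.3 ± 5.30% of that sum in the knockout, with libraries from 23.9% to 36.6%. In the wild type they made up 51.3 ± 5.04%, with libraries from 45.6% to 57.4%. The share of Wnt7a was 30.4 ± 4.87% in the knockout and 11.03 ± 2.90% in the wild type. Wnt7b held a similar share of the sum in both, 29.0 ± 2.24% and 31.2 ± 3.36%, since its level fell about as much as the sum did. The ratio of Wnt7b to Wnt7a per kilobase was 0.707 to 1.22 across knockout libraries and 2.27 to 3.92 across wild-type libraries. These shares follow from the levels above and were given no test.

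**Figure D3:**
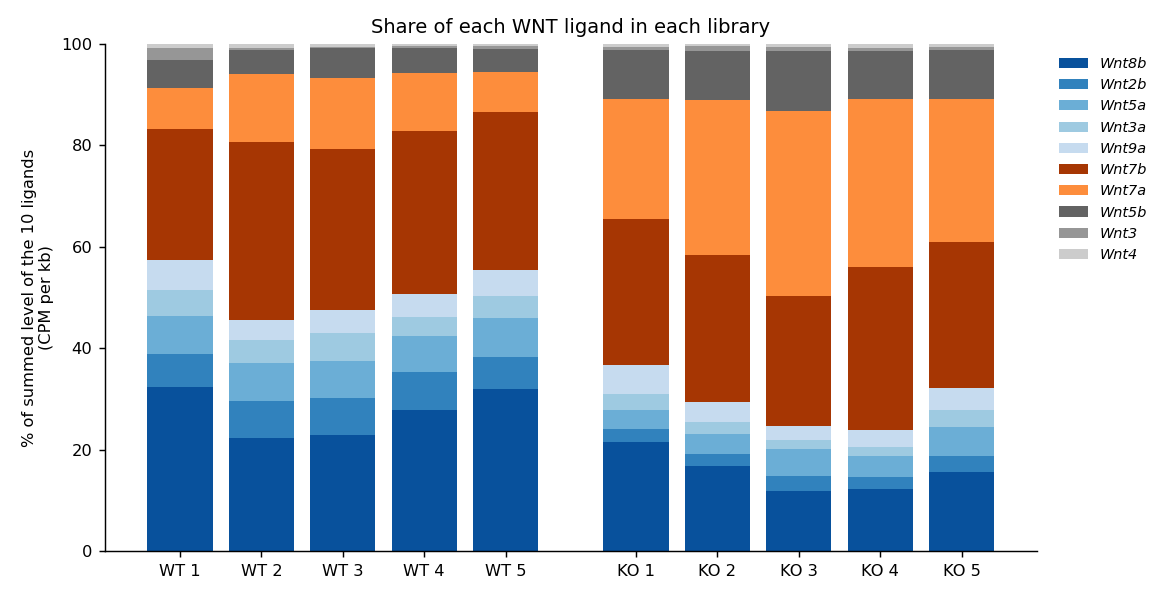
Share of each ligand in the summed level of the 10 ligands (y axis, percent of CPM per kb) for each library, wild-type replicates 1 to 5 on the left and Emx2 KO replicates 1 to 5 on the right; blue bars are hem-type ligands, dark and light orange Wnt7b and Wnt7a, grey the rest. The blue part covers 45.6% to 57.4% of each wild-type bar and 23.9% to 36.6% of each knockout bar.

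Other genes of the hem were lower in the same libraries. Over all tested genes 9.33% were lower and 12.9% higher. Of 10 listed hem genes that are not WNT ligands (BMP genes, Lmx1a, Msx genes, Rspo1 and Rspo3), 9 were tested, 7 were lower and none higher. Bmp5, a BMP ligand, was among them at -1.97 ± 0.23, and the R-spondin Rspo1, a secreted enhancer of WNT signalling, at -1.52 ± 0.22. Rspo1 and Rspo3 also count among the secreted modulators below. A further R-spondin, Rspo2, was not on the hem list and missed the threshold (-1.16 ± 0.40, adjusted p = 0.0669, edgeR). The summed level of the 10 listed genes was 71.6 to 173 CPM in the knockout and 207 to 289 CPM in the wild type. Knockout replicate 1 and wild-type replicates 1 and 5, which were high for hem-type WNT ligands, were also the highest of their groups for these genes.

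Region markers next to the hem moved as well, against 9.33% lower and 12.9% higher among all tested genes. Of 13 choroid plexus genes, 12 were tested, 10 were lower and none higher, with Kcne2 and Htr2c, a potassium channel subunit and a serotonin receptor of that epithelium, at -5.78 ± 0.27 and -4.66 ± 0.12. The sum of the 13 genes was 65.1 to 99.0 CPM in the knockout and 274 to 330 CPM in the wild type. Most of the knockout sum came from Otx2, which is not particular to choroid plexus. Otx2 measured 59.3 ± 14.9 CPM in the knockout and 61.4 ± 16.2 CPM in the wild type (SD). It was not found to differ (-0.04 ± 0.21, adjusted p = 0.933, edgeR), so the sum understates the fall of the other genes. Unlike the hem sum, the choroid plexus sum was not highest in wild-type replicates 1 and 5. Of 10 genes listed for cortical neurons 5 were higher and 1, Reln, was lower. Their sum was 4309 to 5573 CPM in the knockout and 2995 to 4614 CPM in the wild type. Most of it came from Tubb3, Dcx and Map2, which are not particular to cortex. Tbr1 was higher (0.67 ± 0.07), while Neurod1 (0.01 ± 0.12) and Neurod6 (-0.31 ± 0.26) did not pass the test. Wild-type replicates 1 and 5 had the lowest neuron sums, 2995 and 3344 CPM. Of 13 progenitor genes 9 were higher and 1 lower, and of 11 subpallium genes 6 were higher and none lower. The subpallium sum was 207 to 729 CPM in the knockout and 105 to 315 CPM in the wild type, so the groups overlapped. Of its genes 1 had groups that did not overlap, against 9.63% of all tested genes for higher ones. Blood, microglia and endothelium markers held no call in either direction, and 2 of 10 meninges genes were lower. The part of these markers in the ligand differences was not tested.

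**Figure D4:**
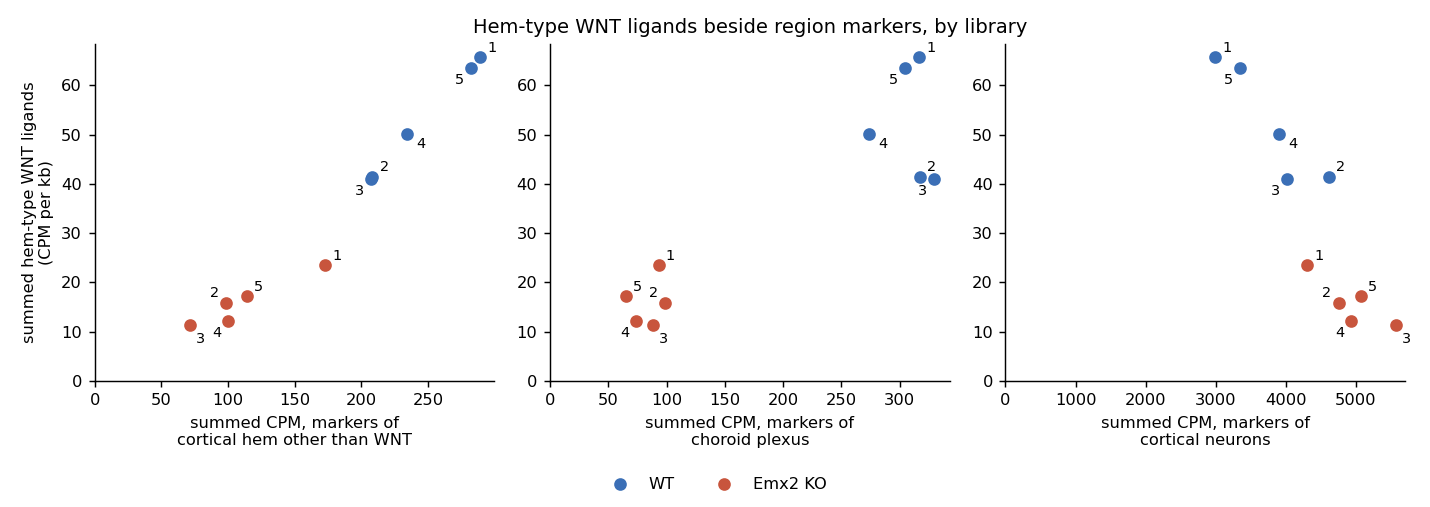
Summed level of the 5 hem-type WNT ligands (y axis, CPM per kb) against the summed CPM of hem markers other than WNT, of choroid plexus markers and of cortical neuron markers (x axes), 1 point a library, numbered by replicate, wild type in blue and Emx2 KO in red. Wild-type replicates 1 and 5 hold the highest ligand and hem marker sums and the lowest wild-type neuron sums, 2995 and 3344 CPM. Most of the neuron sum comes from Tubb3, Dcx and Map2, which are not particular to cortex.

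The 3 genes with the most similar pattern over the 10 libraries were found for each of the 8 ligands that passed the test. The measure was the root mean square difference of gene-centred log2 CPM, where 0 means an identical pattern. The genotype difference is part of the pattern, so genes with a like fold change lie near each other. Wnt8b lay nearest to Rspo3 (0.182), Rspo1 (0.201) and 2700046A07Rik (0.226). Wnt9a lay nearest to Wls (0.189), Apcdd1 (0.214) and Rspo2 (0.235), genes of WNT export, WNT antagonism and WNT enhancement. Sulf1 (0.202) and Sp5 (0.244), a heparan sulfate editing enzyme and a transcription factor, followed Perp (0.184) for Wnt3a. Wnt5a was nearest to Car14 (0.160), the water channel Aqp4 (0.165) and E330013P04Rik (0.197). Wnt2b was nearest to the ion channel Trpm3 (0.218), Lrriq1 (0.266) and Abcg5 (0.290). For Wnt4 the nearest were Gm15587 (0.187), Tec (0.282) and Mme (0.312). Wnt7b was nearest to the chemokine receptor Cxcr4 (0.103), Cav2 (0.122) and Nfatc4 (0.123). Wnt7a was nearest to Zscan2 (0.059), Rnf165 (0.061) and Dlgap4 (0.064). Within the 10 ligands, Wnt3a and Wnt8b differed by 0.28, Wnt8b and Wnt9a by 0.29, and Wnt3a and Wnt5a by 0.33. Wnt7b and Wnt9a differed by 0.35, and Wnt7a and Wnt7b by 0.84.

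Among 14 genes of WNT lipidation, secretion and release, all tested, 2 were lower and none higher. Over all tested genes 9.33% were lower, near the count here, and 12.9% higher. With only genes that averaged 1 CPM or more kept, 1 was lower. Wls, the membrane carrier that brings WNT proteins to the cell surface, was 1 of the 2 lower genes. It measured 47.0, 30.5, 20.1, 27.8 and 28.7 CPM in the knockout and 72.0, 57.3, 54.3, 57.8 and 72.4 CPM in the wild type. Knockout replicate 1 and wild-type replicates 1 and 5, high for most hem-type ligands, held the most Wls in their groups. The log2 fold change was -1.01 ± 0.19 (adjusted p = 0.00442). Porcn, the acyltransferase that lipidates all WNT ligands, had a log2 fold change of 0.03 ± 0.11 (adjusted p = 0.895). The median of this list was -0.07.

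Receptor genes held calls in both directions. Of 21 receptor and coreceptor genes 20 were tested, 7 were lower, 3 were higher and 10 did not pass. The count of higher receptors was near the share over all tested genes, 12.9%, and that of lower ones was above the 9.33%. The Frizzled genes Fzd7 (-1.16 ± 0.12) and Fzd9 (-0.96 ± 0.10) were lower, and Fzd3 was lower by less (-0.35 ± 0.05). Fzd8, a receptor of cortical progenitors, rose from 159 to 202 CPM in the wild type to 315 to 365 CPM in the knockout (0.91 ± 0.06, adjusted p = 3.27e-06). Fzd2 (0.37 ± 0.06) and Fzd5 (1.72 ± 0.37) were also higher, and Fzd5 was between 2.15 and 11.1 CPM in the knockout, with 1 knockout library inside the wild-type range. The vessel coreceptors of Wnt7a and Wnt7b had values of 0.07 ± 0.14 for Adgra2 (adjusted p = 0.780) and 0.06 ± 0.09 for Reck (adjusted p = 0.714).

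Secreted modulators of WNT signalling were mostly lower, with a median of -1.05. Of 18 genes 13 were tested, 7 were lower and 1 was higher, against 9.33% and 12.9% of all tested genes. The lower ones included the antagonists Sostdc1 (-1.59 ± 0.18) and Frzb (-1.05 ± 0.17) and the enhancers Rspo1 and Rspo3, the latter at -1.68 ± 0.34. Rspo2 missed the threshold at -1.16 ± 0.40 (adjusted p = 0.0669) and passed in 6 of 24 alternatives. Among these were the fit with title code as a block (-1.27, adjusted p = 0.0478), DESeq2 (-1.19, adjusted p = 0.0192) and the fit without knockout replicate 1 (-1.66, adjusted p = 0.00174), the library in which it was most abundant. Sfrp1, an antagonist made by cortical progenitors, was the 1 higher gene, at 0.32 ± 0.06.

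Of 19 nuclear factors and target genes of β-catenin signalling 18 were tested, 8 were lower and 4 were higher, with a median of -0.20. The shares over all tested genes were 9.33% lower and 12.9% higher. Axin2, a widely used target, measured 106, 87.1, 77.7, 81.9 and 95.7 CPM in the knockout and 146, 108, 120, 131 and 140 CPM in the wild type. The groups stood apart by a small margin, and the log2 fold change was -0.52 ± 0.10 (adjusted p = 0.00301). Apcdd1 (-1.14 ± 0.18) and Rnf43 (-1.19 ± 0.22), both membrane proteins that restrain WNT signalling and rise with it, were lower by more. The 4 higher genes were Ccnd1 and the nuclear factors Tcf7l1 (0.54 ± 0.07), a TCF factor that mostly represses, Bcl9 (0.32 ± 0.04) and Pygo2 (0.24 ± 0.05). No such factor was among the 8 lower genes. Ccnd1 (0.84 ± 0.15) is a cell cycle gene driven by many inputs. Its groups overlapped, with 239 CPM in knockout replicate 5 and 246 CPM in wild-type replicate 1. The gene of β-catenin itself, Ctnnb1, had a value of 0.07 ± 0.03 (adjusted p = 0.152).

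**Figure D5:**
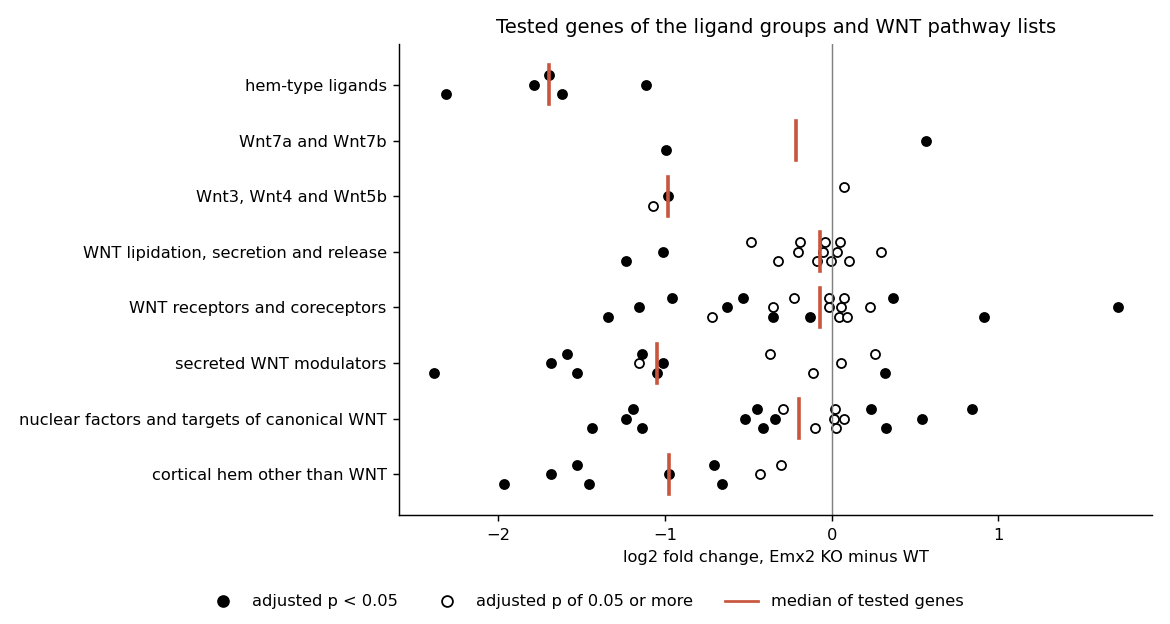
Log2 fold change (x axis, Emx2 KO minus WT) of every tested gene in the 3 sets of ligands and in 5 lists of WNT pathway and hem genes (rows), with filled points where the adjusted p was below 0.05 and a red bar at each list's median. Hem-type ligands, secreted modulators and other hem genes lie mostly left of 0, with medians of -1.69, -1.05 and -0.97, while the medians of receptors and of secretion genes are both -0.07. Rspo1 and Rspo3 appear in both the modulator row and the hem row.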

How the data were processed

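RNA-seq libraries of mouse cortex at stage E12.5 (5 Emx2 KO, 5 WT, grouped by the labels) were analysed from the deposited raw counts per gene. The submitters' processing notes list featureCounts 1.6.3-p1, STAR 2.7.8a and bcl2fastq 2.20, with no order or settings, and the builds GRCm39 and rn6. The strand setting and annotation release were not given in the sources used here, so reads of overlapping or antisense genes cannot be told apart. Genes kept by edgeR's filterByExpr (minimum count 10) were scaled by TMM and tested by quasi-likelihood in edgeR 4.0.16 under R 4.3.3 (F test, two-sided), with genotype as the only term and Benjamini-Hochberg adjustment over 18163 genes at a threshold of 0.05. The procedure was tested on simulated data. CPM used TMM-scaled totals. Lengths for CPM per kb were merged exons of the same gene identifiers in GENCODE's GRCm38 annotation, so a change of gene model between builds would move levels between genes but no fold change. Upstream windows came from RefSeq. The 10 ligands and all gene lists were chosen with earlier results of these data known, so no test was run over a list. Named genes were all 10 ligands, Emx2, up to 3 genes in each direction with the smallest p from each pathway list (up to 2 from each region list) provided they passed the threshold and averaged 1 CPM or more, and the 3 nearest patterns of each ligand that passed. Porcn, Ctnnb1, Pygo2, Adgra2, Reck, Olig3, Otx2, Dcx, Map2, Neurod1, Neurod6, Rspo2, Wnt1, Wnt6 and Wnt10a were named after their values were seen. The alternatives comprised DESeq2 1.42.0, voom in limma 3.58.1, further scalings and filters, title code or size class as a block, subsets of libraries, each library left out and, chosen after seeing the data, a fit without robust estimation.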

Additional observations from a re-analysis of the deposited data

Results flagged for a closer look

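Each ligand was checked in each genotype for a library far from the other 4, and 2 of 20 groups held one, both for Wnt3. Chance alone flags about 5% of groups. Wild-type replicate 1 held 8.41 CPM of Wnt3 against 1.63 CPM in the next library, a gap that made up 0.905 of the range of the wild-type group. Knockout replicate 2 held 1.78 CPM against 1.18 CPM in the next, a gap of 0.736 of the range, at 48 reads against 13 to 36 in the other knockout libraries. Wild-type replicate 1 was also the library with 247 reads of Olig3. The cause was not tested.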

How the results depend on the processing

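The 7 lower ligands and Wnt7a kept their direction under all 24 alternatives and passed the threshold in all 10 fits that left out 1 library. Wnt3 changed sign: without wild-type replicate 1 it was 0.0108, and over the 10 fits that left out 1 library it ran from -1.33 to 0.0108, while in the large libraries alone it was 0.32 (adjusted p = 0.556). In fits of a subset of libraries, which held fewer samples, fewer genes were called. The genes called were 530 in code 241022 alone and 1710 in code 14922 alone, with 4 libraries each. They were 626 in the small and 3296 in the large libraries alone, with 5 libraries each. Over all libraries 4039 were called, and 4525 with DESeq2. The counts thus differed between subsets of equal size, and the cause was not tested. Of the ligands, 4 were lower in each code alone and in each size class alone, 3 of them hem-type, and 0 were higher in code 241022 alone and in the small libraries alone, where Wnt7a was 0.55 (adjusted p = 0.110) and 0.64 (adjusted p = 0.0585). Scaling moved the balance over all genes: 1694 were lower and 2345 higher with TMM, 2245 and 1899 with upper-quartile scaling, and 2464 and 1786 with total counts alone. No ligand changed its call between these scalings. The share of hem-type ligands was 31.1% and 50.7% without length, in knockout and wild type, and 33.0% and 54.9% of the hem-type, Wnt7a and Wnt7b sum. No paired analysis was possible because the replicate numbers are in accession order and pair no samples. Wnt3 and Wnt4 had the fewest reads of the 10 ligands, 13 to 101 and 16 to 66 a library, and whether depth limited them was not tested.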

Other observations

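Of 9 further WNT ligand genes, 2 had enough reads to be tested and Wnt2 had none in any library. Wnt1, a ligand of the dorsal midline of midbrain and caudal diencephalon, was singled out after its values were seen. It had 39, 18, 11, 18 and 15 reads in knockout replicates 1 to 5 and 4, 1, 4, 1 and 1 in wild-type replicates 1 to 5. The groups did not overlap, although levels were under 1 CPM in the mean. Per total count, the 101 knockout reads against 11 wild-type reads gave a ratio of 8.55 (95% exact binomial interval 4.58 to 17.7, counting error only). The fitted log2 fold change of 3.00 ± 0.46 (adjusted p = 0.000619, edgeR) depends on the prior count at such depths, and several filters left the gene out. Wnt1 met the filter on low counts through the knockout libraries alone (0.669 to 1.28 CPM, wild type 0.0297 to 0.333 CPM). That it was tested thus depended on its level there, and the p-value and interval are no separate support for a rise. Wnt10a went the other way in read numbers, with 4, 2, 1, 1 and 0 reads in the knockout and 12, 13, 25, 16 and 14 in the wild type, and did not pass the filter on low counts in the fit of all 10 libraries. It was tested in 14 of 24 alternatives and was lower in 13 of them by edgeR (adjusted p from 2.70e-05 to 0.0508 over the 14), among them 9 of the 10 fits that left out 1 library. These fits share libraries and are not separate support. Where a filter on low counts was used, Wnt10a passed it only through the wild-type libraries, the group in which it had more reads. Wnt6 had 6 to 35 reads a library and a log2 fold change of 0.32 ± 0.29 (adjusted p = 0.497).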
